A study of Mus musculus with 4 samples.

Results

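Immunoglobulin heavy and light chain transcripts were read under 93 of the 30854 names, and by 100 of the 45281 probes, of the Illumina mouse WG-6 v2 bead array, a 1-colour glass array of oligonucleotide beads. The probes were chosen by name alone, as every probe whose array name stands for a segment of the heavy (IGH), kappa (IGK) or lambda (IGL) locus, with surrogate light chain and other look-alike names left out. They comprised 61 heavy variable, 7 heavy constant, 27 kappa variable, 1 kappa constant, 2 lambda variable, 1 lambda constant and 1 lambda joining probe. Where a name had 2 probes, these are called here the brighter and the dimmer by their mean level. By name, 35 probes matched 1 gene of RefSeq (assembly GRCm38.p6, used for names only), 8 of them annotated as pseudogenes. The sources used here do not give the position of a probe within its transcript, and probes of a variable family can share sequence, so a signal may come from related segments.

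The arrays held RNA of lineage-negative mouse bone marrow cells, the fraction left when cells with surface antigens of mature blood lineages are removed. In the deletion group, labelled Atad3afl/flMx1Cre, both Atad3a alleles were floxed and the mice carried Mx1Cre, a Cre recombinase driven by an interferon-inducible promoter that is active in many cell types. The control group, labelled Atad3afl/fl, carried the same floxed alleles without Cre. Both groups received poly I:C, a synthetic RNA that induces interferon, and both were taken on day 12 after it, with 2 arrays in each group. Since Cre was carried by the deletion group alone, what Cre does and what the loss of Atad3a does cannot be told apart, and "deletion" below names the group. The labels do not say that the replicates came from separate animals, so p-values measure the spread between these samples only, which may be technical.

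An antibody heavy chain gene is assembled in developing B cells by joining a variable, a diversity and a joining segment, and splicing then connects the joined exon to a constant region. Mu is the constant region of the first heavy chain made, and later class switching replaces it with gamma, alpha or epsilon regions, while kappa and lambda are the alternative light chains. Early B cells carry the mu chain with a surrogate light chain, and plasma cells transcribe joined heavy and light chain genes at very high levels. Variable and constant segments can also be transcribed before they are joined, and the array names do not separate the 2 kinds of transcript.

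The arrays detected between 37.5% and 39.9% of their probes, with mean raw signals of 376 to 419, and their number limits the precision. Detection means a detection p under 0.05 against the negative control beads, and levels are background-corrected, quantile-normalized intensities on a linear scale, where the dimmest detected probes had 30.7 to 33.5. Atad3a itself, read by a probe whose place relative to the deleted exons is not known, had 1025 and 913 in deletion samples, against 1937 and 2123 in control samples. Its log2 change was -1.07 (SE 0.13, limma adjusted p = 0.00866), and the call was lost without deletion replicate 2 (log2 change -0.98, adjusted p = 0.0646). Kit, a receptor of blood progenitors, was detected on all 4 arrays, with 1211 and 902 in deletion samples and 1765 and 1925 in control samples. Markers that the lineage depletion should reduce were also present, among them the T cell gene Cd3e at 2531 and 2195 in deletion samples and 1317 and 1134 in control samples.

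Immunoglobulin transcripts were mostly higher in deletion samples. Among the 62 immunoglobulin probes detected on at least 2 arrays, which were the probes tested, 31 rose, 0 fell and 31 did not pass an adjusted p of 0.05 with limma and Benjamini-Hochberg adjustment over all 18367 tested probes. Over all tested probes, 14.0% rose and 13.0% fell. The log2 change was above 0 for 58 of the 62 and below 0 for 4, and the median was 1.22 against 0.02 over all tested probes. In 47 of the 62 both deletion arrays lay above both control arrays, and in 3 both lay below, which over all tested probes was the case in 36.7% and 33.4%.

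The filter on detection can favour probes that are high in 1 group. Of the 100 members 7 were detected on a deletion array and on neither control array, and 0 on a control array and on neither deletion array. Among the 53 members detected on all 4 arrays, 28 rose and the median log2 change was 1.41, where 13.7% of the 15015 such probes of the array rose. With no filter, all 100 members gave 17 higher and 0 lower calls and a median of 0.45, against 4.87% higher and 4.73% lower among all 45281 probes. The 33 members detected on no array, among them the lambda joining probe IGLJ4, and the 5 detected on a single array had log2 changes between -0.19 and 0.40 and were not tested.

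Counts depended on single arrays. Higher calls numbered 29 without control replicate 1, 23 without control replicate 2, 22 without deletion replicate 1 and 14 without deletion replicate 2. In the same fits 13.9%, 8.48%, 3.09% and 2.62% of all tested probes were higher. A fit without an array leaves a lone sample in its group, assumed to vary like the other group. All 31 called probes kept a log2 change above 0 in each of these fits. This adds little, since leaving out an array cannot turn the sign of a probe whose groups do not overlap. In such bulk samples more cells of a type and more RNA per cell cannot be told apart.

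Of 7 heavy constant probes 3 rose, for alpha and for gamma of unnamed subclass, and those for IgG1 and mu did not pass. IGHA, the constant region of IgA, had 314 and 462 in deletion samples, against 72.7 and 77.6 in control samples. Both deletion arrays lay far above both controls, and the rise was 5.07-fold (log2 change 2.34, SE 0.21, adjusted p = 0.00482). The brighter of the 2 probes named IGHG, whose name gives no IgG subclass, had 5255 and 12740 in deletion samples, against 1714 and 1822 in control samples. Its groups did not overlap although the deletion arrays differed 2.43-fold between themselves, and the rise was 4.63-fold (log2 change 2.21, SE 0.43, adjusted p = 0.0255). The dimmer IGHG probe had 1538 and 1695 in deletion samples, against 241 and 124 in control samples, a 9.35-fold rise (log2 change 3.23, SE 0.33, adjusted p = 0.00613). Here the control arrays were the more variable pair. The call of the brighter IGHG probe was lost when either control array was left out (adjusted p = 0.0770 and 0.0857), while the calls of IGHA and of the dimmer probe held in all 4 such fits.

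IgG1, the only gamma subclass with probes that name it, was read by IGHG1 and IGH-4, both matched to Ighg1. IGHG1 had 114 and 252 in deletion samples, against 71.6 and 57.3 in control samples, and IGH-4 had 298 and 588 in deletion samples, against 199 and 159 in control samples. On both probes the deletion arrays were the higher, with deletion replicate 2 well above deletion replicate 1, and neither passed (log2 changes 1.41 and 1.23, adjusted p = 0.0618 and 0.0629). Without deletion replicate 1 both passed, which brought the heavy constant probes called higher to 5, at log2 changes of 1.97 and 1.73 (adjusted p = 0.0298 and 0.0361).

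The mu constant region, Ighm, was read by 2 probes named IGH-6. The brighter had 14550 and 20060 in deletion samples, against 11530 and 13930 in control samples. The dimmer had 12410 and 19600 in deletion samples, against 8743 and 10830 in control samples. The deletion arrays were the higher on both, but by less than the spread allows a call (log2 changes 0.43 and 0.68, adjusted p = 0.184 and 0.118). Both probes are among the brightest of the array, with raw ranks from 31 to 227 of 45281, and whether signals are compressed there was not tested.

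Neither light chain constant region passed the test. The kappa constant region, IGK-C, had 23900 and 24690 in deletion samples, against 18930 and 20690 in control samples, and was the brightest probe of deletion replicate 2 by raw signal. Its log2 change was 0.30 (SE 0.12, adjusted p = 0.130), which passed with an intensity trend and robust prior (adjusted p = 0.0152) and with the authors' processed values (adjusted p = 0.0475). The lambda constant region IGLC2 had 2365 and 3770 in deletion samples, against 4906 and 4997 in control samples. It was the only constant region with both deletion arrays below both controls, at a log2 change of -0.73 (SE 0.25, adjusted p = 0.0895), and with median scaling in place of quantile normalization it passed as lower (log2 change -0.90, adjusted p = 0.0462).

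**Figure D1:**
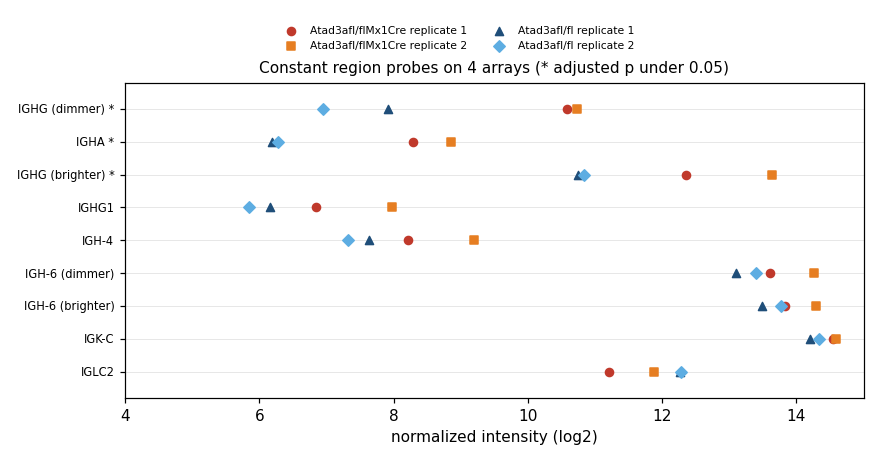
Normalized log2 intensity of the 9 constant region probes on each of the 4 arrays, ordered by log2 change, with deletion arrays as circles and squares, control arrays as triangles and diamonds, and an asterisk where the adjusted p is under 0.05. Both IGHG probes and IGHA stand clearly apart between the groups, the mu (IGH-6) and kappa (IGK-C) probes lie close together at the bright end, and IGLC2 is the only probe with its deletion points on the left.

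Variable segments of the heavy chain gave most of the calls. Of 61 heavy variable probes 30 were tested, of which 19 rose, 0 fell and 11 did not pass, with a median log2 change of 1.75. Without either deletion array 4 heavy variable probes passed as higher. IGH-V11, of the small VH11 family known in mice from B-1 cells whose antibodies bind phosphatidylcholine, had 5588 and 11960 in deletion samples, against 415 and 144 in control samples. The lower deletion array was still far above the higher control array, although arrays of each group differed 2.14-fold (deletion) and 2.89-fold (control). The rise was 33.5-fold (log2 change 5.07, SE 0.62, adjusted p = 0.00886), the third-largest rise among all tested probes, and the call held in all fits without an array. IGHV12S1, of the VH12 family, which in mice is likewise known from phosphatidylcholine-binding B-1 cells, had 1804 and 2966 in deletion samples, against 432 and 258 in control samples. The groups did not overlap, and the rise was 6.93-fold (log2 change 2.79, SE 0.35, adjusted p = 0.00942).

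IGHV5S18, the tested member of the IGHV5 family, had 915 and 995 in deletion samples, against 133 and 80.2 in control samples. Its deletion arrays differed only 1.09-fold, and it had the lowest adjusted p among heavy variable probes (9.24-fold higher, log2 change 3.21, SE 0.27, adjusted p = 0.00389). The other 2 IGHV5 probes were detected on no array. IGHV10S1 had 317 and 698 in deletion samples, against 121 and 49.2 in control samples, and IGHV10S3 had 964 and 1253 in deletion samples, against 358 and 149 in control samples. Both IGHV10 probes rose without overlap of the groups, 6.11-fold and 4.76-fold (adjusted p = 0.0337 and 0.0260). The brighter IGH-VS107 probe, of the IGHV7 family and matched to the pseudogene Ighv7-3, rose 4.68-fold (adjusted p = 0.0134), a call lost without either deletion array (adjusted p = 0.0506 and 0.0727). The calls of IGHV10S1 and IGHV10S3 were lost without either deletion array (adjusted p of 0.0619 and 0.0911 without replicate 1, 0.129 and 0.122 without replicate 2), and that of IGHV10S1 also without control replicate 2 (adjusted p = 0.0900).

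The IGHV1 family, known in older naming as VH J558 and the largest of the mouse, had 40 probes, of which 20 were tested and 13 rose, with log2 changes of the tested from -0.09 to 2.92 and a median of 1.53. With no detection filter 5 of the 13 calls were kept. IGHV1S52 alone kept its call without either deletion array, and that call was lost without control replicate 2 (log2 change 1.62). IGHV1S28 had 1253 and 2165 in deletion samples, against 366 and 129 in control samples. IGHV1S119 had 3024 and 5426 in deletion samples, against 1155 and 536 in control samples. Neither probe's groups overlapped, and the rises were 7.59-fold and 5.15-fold (log2 changes 2.92 and 2.36, SE 0.57 and 0.47, adjusted p = 0.0250 and 0.0262). Both calls were lost without either deletion array, and that of IGHV1S119 also without control replicate 2 (log2 change 1.81). Neither passed with no detection filter (adjusted p = 0.056 and 0.058) or with an intensity trend and robust prior (adjusted p = 0.051 and 0.055). IGHV1S35, at 3725 and 3820 in deletion samples and 1649 and 529 in control samples, did not pass (log2 change 2.02, adjusted p = 0.0549), with control arrays that differed 3.12-fold.

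Of the 2 probes named IGH-VJ558 for the whole family, the dimmer rose and the brighter did not pass. The dimmer had 13720 and 14100 in deletion samples, against 7119 and 6662 in control samples. Its arrays agreed closely within each group and the rise was 2.02-fold (log2 change 1.01, SE 0.12, adjusted p = 0.00742), lost without either deletion array (adjusted p = 0.0565 and 0.0616). The brighter had 18440 and 19810 in deletion samples, against 19200 and 21610 in control samples, with overlapping groups and a log2 change of -0.09 (SE 0.13, adjusted p = 0.618). The brighter probe, at raw ranks of 13 to 59, is among the brightest of the array.

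Families with few probes varied. Both IGHV8 probes were tested and neither passed. IGHV8S7, the brighter, had 673 and 1282 in deletion samples, against 674 and 319 in control samples, so that deletion replicate 1 and control replicate 1 were alike (log2 change 1.00, adjusted p = 0.181). IGHV9S5 and IGHV14S3, the tested probes of their families, had overlapping groups and log2 changes of 0.69 and 0.37. No probe of the IGHV2, IGHV6, IGHV13 and IGHV15 families was tested.

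Kappa variable segments rose in part. Of 27 kappa variable probes 21 were tested, of which 9 rose, 0 fell and 12 did not pass, with a median log2 change of 0.86. Without either control array 5 passed as higher. Whether the heavy and kappa shares differ was not tested. IGKV9-128, annotated by RefSeq as a pseudogene, had 5272 and 11630 in deletion samples, against 468 and 335 in control samples. The groups were separated by more than the 2.21-fold difference between the deletion arrays, and the rise was 19.8-fold (log2 change 4.31, SE 0.42, adjusted p = 0.00550), the 6th largest rise among all tested probes. The other IGKV9 probe, IGKV9-120, had 1100 and 2583 in deletion samples, against 828 and 741 in control samples, and did not pass (log2 change 1.10, adjusted p = 0.116).

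The 2 probes named IGK-V5 moved together. The brighter had 4276 and 5330 in deletion samples, against 1197 and 1222 in control samples, and the dimmer had 1662 and 2062 in deletion samples, against 581 and 434 in control samples. Neither overlapped between groups, and they rose 3.95-fold and 3.69-fold (log2 changes 1.98 and 1.88, SE 0.15 and 0.20, adjusted p = 0.00331 and 0.00663). The brighter had the lowest adjusted p of all immunoglobulin probes.

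In the IGKV4 family 3 of 6 tested probes rose, with a family median log2 change of 0.76. IGKV4-53 had 525 and 354 in deletion samples, against 122 and 89.7 in control samples, a 4.12-fold rise (log2 change 2.04, SE 0.26, adjusted p = 0.00942). IGKV4-91, known in mice as the light chain partner of VH12 in phosphatidylcholine-binding antibodies, had 237 and 311 in deletion samples, against 108 and 104 in control samples. Both groups were tight and apart, with a 2.57-fold rise (log2 change 1.36, SE 0.17, adjusted p = 0.00916). IGKV4-73, the brightest of the family, had 720 and 1061 in deletion samples, against 471 and 492 in control samples (log2 change 0.86, adjusted p = 0.0449), but it did not pass with control replicate 1 (adjusted p = 0.112), control replicate 2 (0.114) or deletion replicate 2 (0.138) left out. IGKV3-2 (log2 change 1.24, adjusted p = 0.0461) and IGK-V33 (log2 change 1.17, adjusted p = 0.0250) also rose. With control replicate 1 or 2 out, neither passed (IGKV3-2 at 0.104 and 0.140, IGK-V33 at 0.0515 and 0.0878), and IGKV3-2 did not pass without deletion replicate 2 (0.0902), with median scaling (0.0573) or with no detection filter (0.0956), nor IGK-V33 without deletion replicate 1 (0.0864).

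On some kappa probes the deletion arrays differed widely. IGKV1-99 had 88.1 and 390 in deletion samples, against 28.9 and 26.9 in control samples, where it was not detected. It entered the test through the deletion arrays alone and was at least 5.66-fold higher, at an adjusted p of 0.0495 that was 0.110 with no detection filter and 0.121 and 0.147 when either control array was left out. IGKV12-98 had 114 and 708 in deletion samples, against 55.8 and 57.0 in control samples, and the 6.22-fold gap between its deletion arrays kept it from passing (log2 change 2.33, adjusted p = 0.111). The brighter IGK-V38 probe, matched by name to Igkv19-93, had 221 and 1394 in deletion samples, against 404 and 353 in control samples, so that deletion replicate 1 lay below and replicate 2 above both controls (log2 change 0.56, SE 0.87, adjusted p = 0.659). The dimmer IGK-V38 probe and IGKV4-80 were placed in the same way. Without deletion replicate 1 the brighter IGK-V38 probe passed as higher (log2 change 1.88, adjusted p = 0.0260).

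The remaining kappa families gave no call. IGKV2-137, the brighter of 2 tested IGKV2 probes, had 1121 and 825 in deletion samples, against 831 and 565 in control samples, with overlapping groups (log2 change 0.49, adjusted p = 0.215). IGKV11-125 and IGKV1-88 were the kappa probes with log2 changes below 0, at -0.59 and -0.78, and both were dim (at most 68.5 on any array) and did not pass (adjusted p = 0.0663 and 0.186). IGKV8-31, annotated as a pseudogene, missed the threshold at a log2 change of 0.82 (adjusted p = 0.0522).

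**Figure D2:**
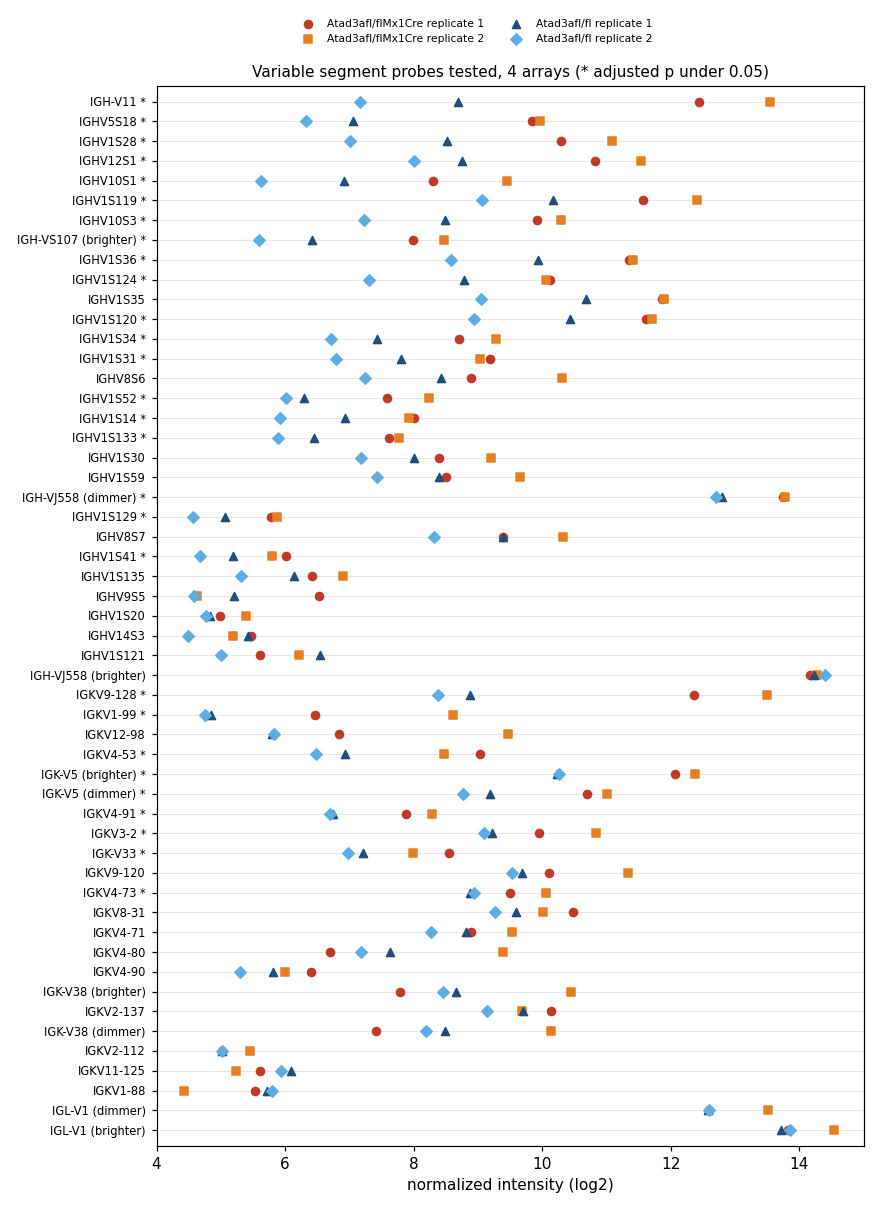
Normalized log2 intensity of each tested variable segment probe on the 4 arrays, heavy chain above, then kappa, then lambda, each ordered by log2 change, with deletion arrays as circles and squares, control arrays as triangles and diamonds, and an asterisk where the adjusted p is under 0.05. IGH-V11 and IGKV9-128 show the widest separation of the groups, control replicate 2 is the lowest point of nearly every heavy chain row, and the IGK-V38 and IGKV4-80 rows have a deletion array on each side of the controls.

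Lambda variable transcripts did not pass the test. The brighter probe named IGL-V1 had 14500 and 23900 in deletion samples, against 13390 and 14800 in control samples, and the dimmer had 6194 and 11730 in deletion samples, against 6137 and 6194 in control samples. On both probes deletion replicate 2 stood alone above the other 3 arrays (log2 changes 0.40 and 0.47, adjusted p = 0.303 and 0.322). With IGLC2, the 3 tested lambda probes thus had log2 changes of both signs.

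Arrays of a group differed widely on many immunoglobulin probes. The 2 deletion arrays differed over 2-fold on 15 of the 62 tested probes, against 0.942% of all tested probes, and deletion replicate 2 was the higher on 49 of the 62. The 2 control arrays differed over 2-fold on 14 of the 62, against 2.18% of all tested probes. All 14 were heavy variable probes. Control replicate 1 was above control replicate 2 on 29 of the 30 heavy variable probes, by a median of 0.95 on the log2 scale, while over all tested probes it was above on 48.2%, with a median difference of -0.01. For the 7 heavy constant probes control replicate 1 was above on 3, and for the kappa variable probes on 17 of 21 by a median of 0.20. Probes of 1 locus can share sequence and are not independent measurements.

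**Figure D3:**
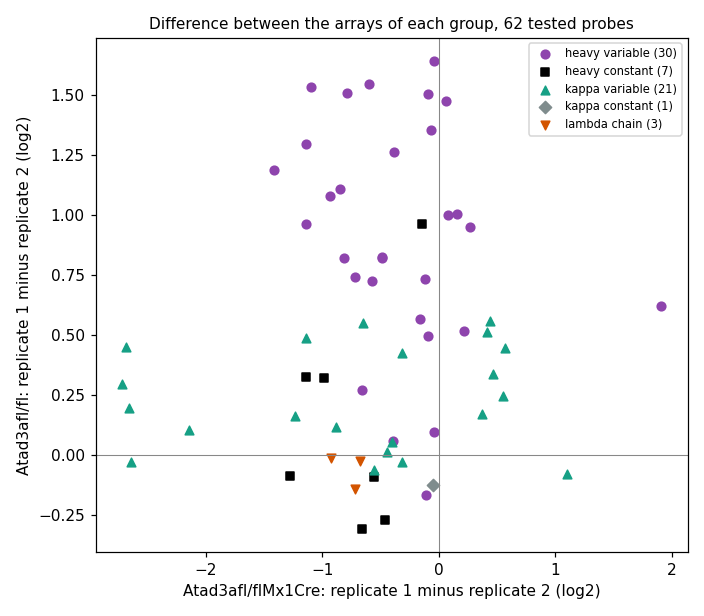
Difference between the arrays of each group on the 62 tested immunoglobulin probes, with deletion replicate 1 minus replicate 2 on the horizontal axis and control replicate 1 minus replicate 2 on the vertical axis, both in log2. Heavy variable probes lie almost entirely above the horizontal line, which marks equal control arrays, and kappa variable probes spread along the deletion axis with several near -2.7.

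Only 19 probes of the array, 0.103% of those tested, rose at least 8-fold and passed the test, and 4 of them were immunoglobulin probes (IGH-V11, IGKV9-128, the dimmer IGHG and IGHV5S18). The 8-fold limit was chosen after the values were seen.

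Genes that act with immunoglobulin chains in early B cells were lower in deletion samples. For genes, each read by its brightest tested probe, 14.8% of 10406 rose and 14.2% fell. All 4 tested genes of the list of receptor partners and surrogate light chain fell, with a median log2 change of -2.87. Cd79b, the signalling partner of surface immunoglobulin, had 606 and 793 in deletion samples, against 6229 and 6158 in control samples (log2 change -3.16, SE 0.17, adjusted p = 0.00175). Vpreb3, which binds the mu chain in precursor B cells, had 55.7 and 109 in deletion samples, against 6377 and 6350 in control samples (log2 change -6.35, SE 0.33, adjusted p = 0.00171). Both deletion arrays were far below the controls on each. The surrogate light chain genes Vpreb1 and Igll1 also fell (log2 changes -2.58 and -2.54, adjusted p = 0.00389 and 0.00142). Vpreb2 was not detected on enough arrays, and no probe matched Cd79a by symbol.

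The V(D)J recombination genes were split. Of 9 tested genes 4 fell, 1 rose and 4 did not pass, with a median log2 change of -0.41. The split depended on the detection filter. With detection p under 0.01 on all 4 arrays 5 genes were tested, of which 1 fell and 1 rose, with a median of 0.32. Rag1, a subunit of the recombinase, had 50.7 and 32.4 in deletion samples, against 953 and 821 in control samples (log2 change -4.45, SE 0.25, adjusted p = 0.00176). Rag2, the other subunit, was not detected in deletion samples and entered the test through the control arrays alone. It was at least 1.68-fold lower (adjusted p = 0.00558), and the end-joining genes Lig4 and Xrcc6 fell as well (log2 changes -1.21 and -0.90). Lig4 had 32.3 and 32.8 in deletion samples, near the dimmest detected level, against 74.8 and 75.8 in control samples. Xrcc6 did not pass without either deletion array (adjusted p = 0.0827 and 0.0860) or over the mean of its 3 tested probes (log2 change -0.56, adjusted p = 0.169). Dntt, which adds bases at the joins, had 533 and 666 in deletion samples, against 120 and 121 in control samples, and was the member that rose (log2 change 2.31, SE 0.15, adjusted p = 0.00239).

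Of 15 tested regulators of the immunoglobulin loci and the B lineage, 7 fell, 2 rose and 6 did not pass, with a median log2 change of -0.50. Pou2af1, a coactivator at immunoglobulin promoters, had 244 and 530 in deletion samples, against 2754 and 2748 in control samples (log2 change -2.93, SE 0.38, adjusted p = 0.00983). Irf4, which binds the light chain enhancers, had 175 and 304 in deletion samples, against 1262 and 1466 in control samples (log2 change -2.56, SE 0.29, adjusted p = 0.00744). Both fell with no overlap, as did Spib and Ebf1 (log2 changes -3.23 and -2.60, adjusted p = 0.00126 and 0.00224). Irf8 and Spi1 rose by log2 changes of 0.77 and 0.79 (adjusted p = 0.0163 and 0.0170), in calls that were lost without either deletion array. Pax5, Bach2 and Yy1 were not tested. Without either deletion array 4 regulators fell and 0 rose.

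B lineage surface and signalling markers fell in 7 of 12 tested genes and rose in 2, with a median log2 change of -1.31. Ms4a1 and Cd24a, among those that fell, entered the test through the control arrays alone. With detection p under 0.01 on all 4 arrays 8 genes were tested, of which 4 fell and 2 rose, with a median of -0.86. Blk, a kinase of B cell receptor signalling, had 197 and 197 in deletion samples, against 1160 and 1328 in control samples (log2 change -2.66, SE 0.13, adjusted p = 0.00160). Both deletion arrays lay far below both controls. Cd24a and Blnk also fell (log2 changes -2.37 and -2.31), with Cd24a undetected in deletion samples and so at least 4.92-fold lower. The 2 that rose, H2-DMa and Cd74, belong to antigen presentation and are not made by B cells alone (log2 changes 1.21 and 0.97, adjusted p = 0.00600 and 0.00959). Neither passed without deletion replicate 2 (adjusted p = 0.0520 and 0.0548), nor did Cd74 without deletion replicate 1 (adjusted p = 0.0693). Summed linear levels of the tested list were 10710 and 10490 in deletion samples and 12530 and 13430 in control samples. The deletion sums were led by Cd74 and H2-DMa. Cd74 had 3542 and 3149 in deletion samples and 1669 and 1737 in control samples, and H2-DMa had 3115 and 3193 against 1288 and 1449. The control sums were led by Cd72, with 3607 and 3939, against 823 and 751 in deletion samples. The 10 tested pro-B and pre-B markers share Vpreb1, Vpreb3, Igll1, Rag1, Rag2, Dntt and Ebf1 with the lists above. Of these 10, 7 fell and 1 rose. Their summed levels were 3695 and 4046 in deletion samples and 12430 and 12090 in control samples. Rag2 and Bst1, which fell, were detected in control samples alone. With detection p under 0.01 on all 4 arrays 7 of these markers were tested, of which 4 fell and 1 rose.

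Plasma cell markers gave no common direction. Of 13 tested genes 3 rose, 2 fell and 8 did not pass, with a median log2 change of 0.43. The sign of the median depended on the detection filter. With detection p under 0.01 on all 4 arrays 8 genes were tested, of which 1 rose and 2 fell, with a median of -0.15. Summed levels of the 13 were 8689 and 11950 in deletion samples and 8974 and 8463 in control samples. Xbp1, the transcription factor of the secretory programme, had 3912 and 4982 in deletion samples, against 1853 and 1857 in control samples (log2 change 1.25, SE 0.16, adjusted p = 0.00932). Tnfrsf17, the plasma cell survival receptor BCMA, had 102 and 137 in deletion samples, against 36.4 and 42.7 in control samples (log2 change 1.59, SE 0.19, adjusted p = 0.00859). Both rose without overlap of the groups. Edem1, of endoplasmic reticulum degradation, also rose (log2 change 1.02, adjusted p = 0.0352).

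Sdc1, the plasma cell surface antigen CD138, had 31.4 and 40.0 in deletion samples, against 94.4 and 101 in control samples, and fell together with Irf4 (Sdc1 log2 change -1.46, SE 0.16, adjusted p = 0.00690). Jchain, which links IgA and IgM multimers, had 31.2 and 61.7 in deletion samples, against 28.1 and 31.0 in control samples, where it was not detected, and it did not pass (log2 change 0.57, adjusted p = 0.264). Jchain was thus near background on all 4 arrays except deletion replicate 2. Prdm1 and Ell2 were not detected on enough arrays. Without deletion replicate 2 the call of Xbp1 was lost (log2 change 1.08, adjusted p = 0.0532), and the call of Edem1 was lost without it (adjusted p = 0.104) and without either control array (adjusted p = 0.0785 and 0.112).

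Markers of several other cell types moved between the groups as well. T and NK markers rose in 7 of 10 tested genes, with summed levels of 28560 and 22790 in deletion samples and 12600 and 12030 in control samples, and Cd247, a T cell receptor chain, rose most (log2 change 2.00, adjusted p = 0.0130, but 0.0721 without deletion replicate 1 and 0.0565 without deletion replicate 2). Plasmacytoid dendritic cell markers rose in 4 of 6 and fell in 1, with summed levels of 8167 and 7714 in deletion samples and 4737 and 5072 in control samples. Stem and progenitor markers rose in 4 of 5, led by Ly6a (log2 change 2.54, adjusted p = 0.00142), and fell in 1. Their sums were 6233 and 6189 in deletion samples and 2848 and 2963 in control samples. Single genes dominate the stem and progenitor sums. Ly6a had 4495 and 4588 in deletion samples and 806 and 753 in control samples. Kit, the gene that fell, had 1211 and 902 in deletion samples and 1765 and 1925 in control samples. Erythroid markers fell in 6 of 7, with sums of 7246 and 849 in deletion samples and 44690 and 46310 in control samples. Hba-a1, which did not pass (adjusted p = 0.099), had 5889 and 312 in deletion samples and 20600 and 20850 in control samples. The fall of Slc4a1 did not pass with no detection filter (adjusted p = 0.0605) or with an intensity trend and robust prior (adjusted p = 0.131). Its call was also lost when either control array was left out. Myeloid markers rose in 1 and fell in 1 of 7, near the shares over all genes (14.8% and 14.2%). Ly6c1 rose (log2 change 0.85, adjusted p = 0.0139) and Elane fell (log2 change -3.13, adjusted p = 0.00468). The myeloid sums were 41210 and 39440 in deletion samples and 37450 and 38760 in control samples. They were led by Mpo, whose log2 change was 0.04. The part of these cell types in the immunoglobulin result was not tested. With deletion replicate 1 or 2 left out, 1 or 3 T and NK markers and 3 or 1 stem and progenitor markers rose, and the myeloid rise was lost. Without either control array 2 stem and progenitor markers rose. The stem and progenitor marker that fell, Kit (log2 change -0.82, adjusted p = 0.0346), lost its call in each fit without an array (adjusted p from 0.0582 to 0.137), and its log2 change was -0.19 over the mean of its probes.

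**Figure D4:**
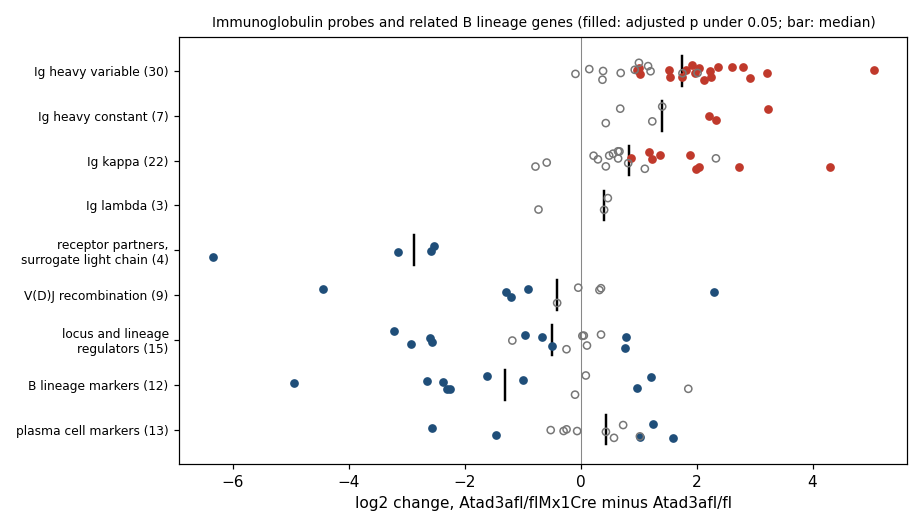
Log2 change, deletion minus control, of each tested immunoglobulin probe (upper 4 rows) and of each tested gene of 5 lists (lower rows), with the number tested in brackets, filled points where the adjusted p is under 0.05 and a bar at each median. Immunoglobulin rows lie mainly right of 0, with heavy variable probes centred at 1.75, while receptor partners are centred at -2.87, B lineage markers at -1.31, and plasma cell markers lie on both sides of 0.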

How the data were processed

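Total RNA of 4 samples was copied into biotin-labelled cRNA for 1 bead array each, per the labels' protocols. The deposited scanner table holds a non-normalized intensity per probe and, per the file headers, a detection p-value beside it. It came from GenomeStudio, per the submitters' processing notes, whose version and background steps the sources used here do not give. The authors' processed intensity table, quantile normalized by its values, served as an alternative.

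With limma 3.58.1 (R 4.3.3), background was corrected following neqc (negative controls inferred from detection p, offset 16), and values were quantile normalized and taken to log2, all computed here from the deposited intensity. Low values near background shrink the log2 change of dim probes. Probes with detection p under 0.05 on at least 2 of 4 arrays were fitted with lmFit and eBayes (2 residual and 2.72 prior degrees of freedom), and p-values were Benjamini-Hochberg adjusted over all 18367, at a threshold of 0.05. The fit was tested on simulated data. Changes are deletion minus control. A probe undetected on all arrays of a group gives an "at least" fold, against the higher of its own signal and the lowest detected signal. A permutation of 2 against 2 arrays cannot give a two-sided p below 0.333.

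The members, lists and tests were chosen with earlier results of these data known. Named by rule were every constant probe, the 10 brightest members, the 6 largest called changes in each direction among heavy variable, kappa variable and lambda probes, the brightest tested probe of each variable family with at least 2, up to 4 members of each list in each direction, and Atad3a; other members named were chosen after their values were seen. Same-numbered arrays' deviations from their group means correlated at 0.03 over tested probes and 0.09 over tested members, and the labels give no pairing. Alternatives were other background correction, scaling, filters, prior, replicate block, the authors' values, the mean of probes of a name, and each array left out. Some genes of the lists are not reported here.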

Additional observations from a re-analysis of the deposited data

How the results depend on the processing

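The alternatives changed the counts. The 31 called immunoglobulin probes kept a log2 change above 0 under each alternative in which they were tested. Of these, 28 were tested with detection p under 0.01 on all 4 arrays. Filters, the prior and the replicate block leave a probe's log2 change as it was. Leaving out an array cannot turn its sign where the groups do not overlap. For these alternatives the kept direction therefore says little. With no detection filter 17 were called higher, 9 of them heavy variable, and the median over all 100 was 0.45; here more probes share the adjustment. With median scaling 30 were higher and 1 lower (the lambda probe IGLC2), and over all tested probes 2152 were higher and 2876 lower, against 2577 and 2382. Leaving out each array gave 14 to 29 immunoglobulin probes higher and 0 to 1 lower, 4 to 22 heavy variable, 2 to 5 heavy constant and 5 to 13 kappa variable higher, 0 to 1 kappa variable lower, and 481 to 2552 probes higher and 678 to 2190 lower over the array, with 1 sample left in a group. The replicate block gave 33 immunoglobulin probes higher and 0 lower, and 2118 higher and 1883 lower over the array; of the 31 it lost IGHV10S1 (adjusted p = 0.0502). With the mean of all probes of a name, the brighter IGH-VJ558 probe shared a log2 change of 0.46 (adjusted p = 0.0346), reversed from -0.09, because the dimmer probe enters the mean. IGH-V11, IGHV5S18, IGHV12S1, IGHA, the dimmer IGHG, IGKV9-128, IGKV4-53, IGKV4-91 and both IGK-V5 probes kept their calls under every alternative run. Of 30 named immunoglobulin probes 22 to 30 stayed on their side of the threshold under each alternative. The number of arrays and signal near background limit the dim probes.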
